A study of Mus musculus with 6 samples.

Results

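The 55 genes described here encode the machinery of mitosis and of the kinetochore. They were chosen by symbol, as the rows of the count matrices that carry one of 55 fixed gene symbols, out of 31053 gene rows, and all 55 were found once. By role they comprised 9 cyclins, mitotic kinases and their regulators, 5 genes of anaphase promotion, 5 of the spindle assembly checkpoint, 5 of the centromere and inner kinetochore, 7 of the outer kinetochore, 4 of the chromosomal passenger complex, 2 shugoshins, 7 kinesin motors, 5 of spindle assembly, 4 of the central spindle and cytokinesis, and 2 of mitotic chromosome structure. The data are 10x single cell RNA-seq of mouse germinal center (GC) B-cells in 6 libraries. All the mice carried Cgamma1-Cre, a Cre recombinase driven from the immunoglobulin gamma 1 locus that acts in B-cells which join the GC reaction. The 3 WT libraries are labelled Cgamma1-Cre WT Control, and the 3 Smc3 +/- libraries are labelled Cgamma1-Cre Smc3 +/-, heterozygous for *Smc3*, a core subunit of the cohesin ring. The study's methods say that the cells were sorted from spleens after immunization with sheep red blood cells and the *Smc3* deletion is made by the Cre in GC B-cells; the age of the mice was not given in the sources used here. The methods count as many Smc3 +/- mice as there are Smc3 +/- libraries and more wild-type mice than WT libraries here, and do not tie mice to libraries, so p-values measure the spread between libraries.

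GC B-cells divide as centroblasts in the dark zone, are selected as centrocytes in the light zone, and leave as memory B cells or as plasmablasts that mature into plasma cells. In a dividing cell, cyclin B with Cdk1 drives entry into mitosis, the kinetochore ties each chromatid to spindle microtubules, and the spindle assembly checkpoint holds back the anaphase-promoting complex until every kinetochore is attached. Cdc20 and Ube2c then let that complex destroy cyclin B and securin, separase cuts cohesin, and the central spindle guides the final split of the cell. Transcripts of most of these genes build up after DNA replication, and many of their promoters carry a CHR element with CCAAT boxes, the sites read by the DREAM and MuvB complexes and by NF-Y.

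Promoter windows are shown first, since most of these genes shared both motifs there. RefSeq windows on build GRCm38.p6, running from 250 bases before to 50 bases after the annotated start, were found for 48 of the 55 genes and not for *Aurkb*, *Ccna2*, *Cdc25c*, *Incenp*, *Kif20a*, *Spc24* and *Tpx2*. The CHR was searched as TTTGAA or TTCGAA and the CCAAT box as CCAAT, on both strands, and the matches stand in capitals (TTCAAA and ATTGG are the same motifs on the other strand). The cyclin B2 gene *Ccnb2* (chr9:70421505-70421804, minus strand), the checkpoint target *Cdc20* (chr4:118437294-118437593, minus strand) and the ubiquitin-conjugating enzyme gene *Ube2c* (chr2:164769679-164769978, plus strand) hold both motifs. The inner kinetochore gene *Cenpk* (chr13:104228361-104228660, plus strand) and the securin gene *Pttg1* (chr11:43425932-43426231, minus strand) are shown as windows without a CHR. Windows and levels did not go together in one way. The median log2 ratio of CB-like over S-phase cells, described further on, was 1.69 for the 11 genes without a CHR and 1.53 for the 37 with it. By CCAAT box it went the other way, at 1.275 for the 12 genes without it and 1.61 for the 36 with it. *Cenpw*, with a ratio of 0.50, holds both motifs. The RefSeq start lay within 50 bases of the GENCODE start for 36 of the 48 genes. For *Pttg1* it lay 270 bases downstream, so that its window is inside the GENCODE gene and does not show the sequence before that start.
Ccnb2: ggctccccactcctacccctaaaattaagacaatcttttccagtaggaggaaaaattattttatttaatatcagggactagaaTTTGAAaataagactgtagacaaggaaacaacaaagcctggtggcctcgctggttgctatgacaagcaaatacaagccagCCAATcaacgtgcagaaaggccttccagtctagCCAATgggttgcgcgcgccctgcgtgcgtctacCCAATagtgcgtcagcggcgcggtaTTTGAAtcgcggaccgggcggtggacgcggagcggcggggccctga
Cdc20: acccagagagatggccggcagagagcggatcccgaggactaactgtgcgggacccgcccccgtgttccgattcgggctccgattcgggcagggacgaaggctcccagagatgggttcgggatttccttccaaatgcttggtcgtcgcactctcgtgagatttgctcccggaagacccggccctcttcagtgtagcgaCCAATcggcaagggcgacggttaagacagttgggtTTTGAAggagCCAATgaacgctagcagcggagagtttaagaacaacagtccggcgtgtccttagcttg
Ube2c: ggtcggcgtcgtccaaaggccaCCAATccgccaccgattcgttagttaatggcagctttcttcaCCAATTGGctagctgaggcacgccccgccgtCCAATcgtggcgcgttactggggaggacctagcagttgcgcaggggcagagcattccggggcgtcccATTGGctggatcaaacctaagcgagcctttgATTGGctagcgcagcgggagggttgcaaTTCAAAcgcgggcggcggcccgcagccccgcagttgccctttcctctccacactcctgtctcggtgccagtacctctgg
Cenpk: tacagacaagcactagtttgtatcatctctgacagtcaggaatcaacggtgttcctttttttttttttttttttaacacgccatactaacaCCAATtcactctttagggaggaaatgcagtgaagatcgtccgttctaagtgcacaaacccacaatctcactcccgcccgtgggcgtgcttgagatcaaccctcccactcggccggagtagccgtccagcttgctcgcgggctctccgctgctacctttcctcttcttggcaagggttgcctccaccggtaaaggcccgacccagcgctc
Pttg1: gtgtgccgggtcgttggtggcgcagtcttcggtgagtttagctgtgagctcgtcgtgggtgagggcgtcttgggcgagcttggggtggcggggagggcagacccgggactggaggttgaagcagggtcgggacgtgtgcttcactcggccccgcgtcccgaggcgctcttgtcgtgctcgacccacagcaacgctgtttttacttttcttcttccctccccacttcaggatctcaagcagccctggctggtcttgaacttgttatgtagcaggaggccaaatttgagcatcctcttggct
A CHR was found in 37 of the 48 windows (77.1%), against 19.4% of the windows of all 27025 genes. Of the 9035 windows of genes with UMIs enough for the genotype test in all kept cells, 14.4% held one. It lay within 50 bases of the start in 33 of the 48 (68.8%), against 5.26% of all windows. A CCAAT box was found in 36 windows (75%), against 37.9% of all windows, and at least 2 of them in 22 windows (45.8%), against 12.1%. Both motifs stood together in 31 windows (64.6%), against 7.66%. The E2F letters TTTGGCGC, TTTCCCGC, TTTGCCGC and TTTCGCGC were in 2 of the 48 (4.17%), against 2.32% of all windows and 4.26% of the 9035 windows of genes with enough UMIs. In *Ccnb2* the CHR matches began 167 bases before and 4 bases after the start and the CCAAT matches 87, 54 and 21 bases before it, and in *Cdc20* the single CHR began 18 bases before it. *Cenpk* had a CCAAT box 159 bases before the start and no CHR. Neither motif was matched in *Birc5*, *Mad2l1*, *Nuf2*, *Nusap1*, *Pttg1* and *Tacc3*. A match is a run of letters and not a shown binding site, and no match says only that these letters are not in this window. The starts of *Pttg1* and *Mad2l1* differed between RefSeq and GENCODE by more than 50 bases.

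The libraries held 5223325 to 35354257 UMIs. Of their 22939 barcodes, 20809 were kept as cells, 1011 to 4963 per library, and no pair of libraries shared more than 37 cell barcodes. Replicate 2 of Smc3 +/- stood apart. The share of immunoglobulin UMIs was 51.9% in it and 2.37% to 3.90% elsewhere, and 1173 of its 3558 cells were plasma cell-like. Levels are therefore given per library, and the medians over the genes with the value of that library or without it, whereas medians by role are over all 6 libraries. Cells were clustered with the 55 genes and the other mitosis genes left out, and clusters were named from markers, so a name ending in "-like" rests on transcripts alone. The labels call the samples GC B cells, but 1842 naive or memory B-like, 531 T cell-like and 750 myeloid-like cells were also found, and 646 of the myeloid-like cells were in Smc3 +/- replicate 2. The comparisons used 5736 centroblast-like (CB-like, dark zone) cells, 1302 centrocyte-like (CC-like, light zone) cells, 3427 S-phase GC B-like cells, 547 plasmablast-like (PB-like) cells and 1255 plasma cell-like (PC-like) cells. CB-like cells came from 3 clusters. Clusters 4 and 6 had none of the CB-like markers among their 10 leading genes and took the name from the whole marker list, and cluster 2 had 1, so the name stands for a group of cells and not for a measured place in the dark zone. Classes come from clusters of the same cells, so class was compared with class within each library as a description and with no test.

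The 55 genes together were highest in CB-like cells in every library. Their UMIs made up 158.3, 157.3 and 155.2 of every 10000 UMIs of CB-like cells in WT replicates 1, 2 and 3 and 174.1, 129.6 and 160.3 in Smc3 +/- replicates 1, 2 and 3, the order used for all values that follow. Recycling-like cells, an *Srm* and *Hspd1* high cluster with the deepest GC B-cell profiles, came next among the named classes at 100.4, 93.7 and 93.6 in WT and 102.9, 63.0 and 97.9 in Smc3 +/-. CC-like cells held 65.1, 64.9 and 74.0 in WT and 75.9, 30.6 and 68.1 in Smc3 +/-, and S-phase GC B-like cells 53.4, 47.6 and 49.6 in WT and 57.4, 39.7 and 51.2 in Smc3 +/-. Clustered without integration, S-phase GC B-like cells were at 110.1 in WT replicate 1 and 115.0 in Smc3 +/- replicate 1. In the other libraries they were at 43.2 to 61.8. PB-like cells lay at 59.5, 72.6 and 74.1 in WT and at 82.6, 22.9 and 72.2 in Smc3 +/-, near the CC-like values of the same libraries. PC-like cells held 1.27 to 5.90 in the 6 libraries. Smc3 +/- replicate 2 was the lowest library in each of these classes. It was well below the other 5 in CC-like, PB-like and recycling-like cells. Immunoglobulin was at 5.21% of UMIs in its CC-like cells against 1.25% to 1.38%, and at 40.5% in its PB-like cells against 11.6% to 16.5%. Of the 95 CC-like cells of that library, 83 were naive or memory B-like and 10 CC-like when cells were clustered without integration. Its 16 CC-like cells of that clustering were at 48.3, and the other libraries at 59.7 to 75.3. With immunoglobulin UMIs left out its PB-like cells were at 38.4 and those of the other libraries at 69.7 to 95.4. Naive or memory B-like cells lay at 7.89 to 48.2, T cell-like cells at 10.1 to 55, and the largest cluster, cluster 0, at 7.82 to 17.2. This cluster of 3678 cells was led by haemoglobin genes, with *Pxdc1*, *Apoe* and *Gsn* next among its leaders, and was left without a name.

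**Figure D1:**
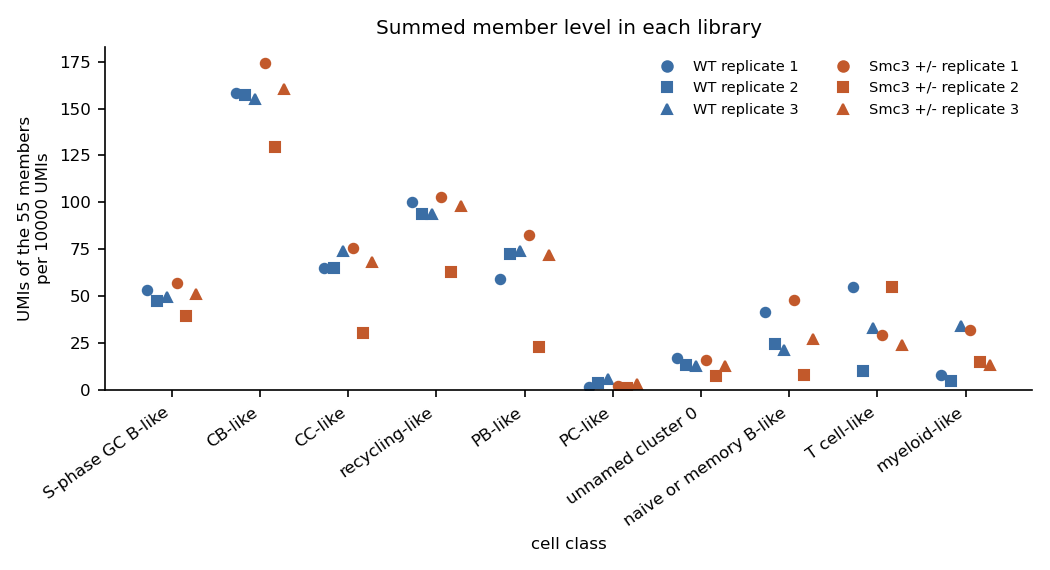
UMIs of the 55 genes per 10000 UMIs (vertical axis) in each cell class (horizontal axis), 1 point per library, blue for WT and orange for Smc3 +/-, with circles, squares and triangles for replicates 1, 2 and 3. CB-like cells sit highest, between 129.6 and 174.1, and PC-like cells lie at 1.27 to 5.90. Smc3 +/- replicate 2 is the lowest library in every class but the T cell-like and myeloid-like cells.

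Nearly the whole group was higher in centroblast-like cells than in S-phase cells. This order was partly set by the grouping and naming of cells. The S-phase class was named by replication genes, and the clustering kept cell cycle genes such as *Aspm* and *Kpna2*, leading genes of cluster 2. The log2 ratio of CB-like over S-phase GC B-like cells, computed on CPM with a pseudocount of 10 CPM, had a median of 1.59 over the 55 genes (a fold of 3.01), against -0.02 over the 10966 genes compared. CPM here is the usual scaling of the UMIs of a gene to all UMIs of the class in that library. The ratio was above 0 in all 6 libraries for 54 of the 55 genes, where 11.9% of all compared genes had this pattern, and below 0 in all 6 for *Cenpk*, where 15.2% of all genes had that pattern. The median over the genes was 1.52 to 1.70 in every single library, with 1.70 in Smc3 +/- replicate 2. By role, the medians were highest for spindle assembly (2.08), the chromosomal passenger complex (1.89) and the kinesins (1.85) and lowest for the centromere and inner kinetochore (0.69). With a cluster resolution of 1, where a histone gene-led cluster like cluster 4 was named S-phase GC B-like, the median over the 55 genes was 0.83.

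*Ube2c*, the enzyme that starts ubiquitin chains for the anaphase-promoting complex, had the highest ratio, a median log2 of 3.34. It was at 40.9, 67.5 and 59.3 CPM in WT and 64.9, 115 and 63.9 CPM in Smc3 +/- libraries in the S-phase class and at 655, 706 and 722 CPM in WT and 739, 685 and 752 CPM in Smc3 +/- libraries in the CB-like class. The 2 sets of libraries do not overlap, and Smc3 +/- replicate 2 was the highest of the S-phase values. *Cenpf*, a large protein of the outer kinetochore (2.96), and *Plk1*, the polo kinase of mitotic entry (2.53), followed. *Cenpf* was at 25, 40.2 and 33.5 CPM in WT and 41, 36.7 and 42 CPM in Smc3 +/- libraries in S phase and at 272, 355 and 346 CPM in WT and 279.6, 376 and 379.9 CPM in Smc3 +/- libraries in CB-like cells. *Plk1* was at 39.6, 28 and 36.5 CPM in WT and 58.1, 29.8 and 36.9 CPM in Smc3 +/- libraries in S phase and at 297, 238 and 252 CPM in WT and 372, 179 and 267 CPM in Smc3 +/- libraries in CB-like cells. At the other end stood 2 components of the inner kinetochore, *Cenpk* and *Cenpw*, and securin. *Cenpk* was at 158, 95.7 and 95 CPM in WT and 127, 96.3 and 100.1 CPM in Smc3 +/- libraries in the S-phase class and at 106, 90.4 and 86 CPM in WT and 119.5, 90.9 and 97 CPM in Smc3 +/- libraries in CB-like cells, a median log2 ratio of -0.08. *Pttg1* had a median log2 ratio of 0.16, with 77.8, 60.6 and 55.9 CPM in WT and 77.2, 36.7 and 57.5 CPM in Smc3 +/- libraries in S phase and 89.8, 65.2 and 61.4 CPM in WT and 93.8, 46.2 and 64 CPM in Smc3 +/- libraries in CB-like cells. For *Cenpw*, whose product forms histone-fold pairs at the centromere, the ratio was 0.50. Its level was 166, 98.3 and 100.3 CPM in WT and 113, 110.1 and 97 CPM in Smc3 +/- libraries in S phase and 167, 153 and 139 CPM in WT and 172, 128 and 152 CPM in Smc3 +/- libraries in CB-like cells. These 3 genes had CB-like levels closest to those of the S-phase class, a cluster led by the replication genes *Cdc6* and *Mcm6*.

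**Figure D2:**
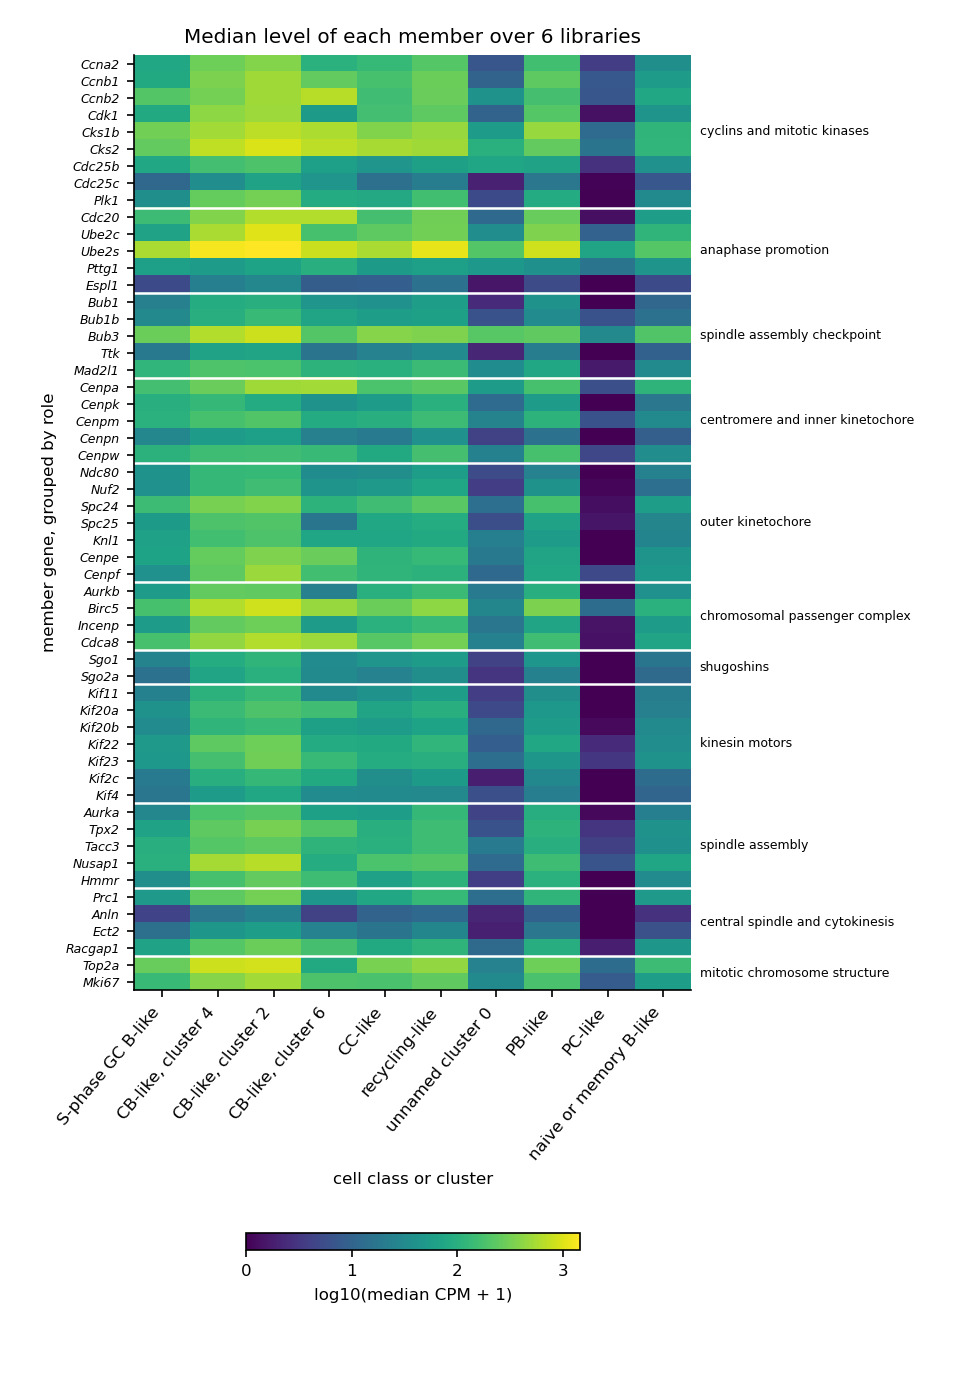
Median CPM over the 6 libraries for each of the 55 genes (rows, grouped by role) in 10 cell classes or clusters (columns), with colour on a log10(CPM + 1) scale. Rows are to be read across and not against each other, since counts of 3′ tags differ between genes for reasons other than level. Clusters 4 and 2 of the CB-like cells are the brightest columns for most rows, PC-like cells the darkest.

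Within the CB-like cells the 3 clusters differed in which of the genes they held. Cluster 4 (1609 cells) was led by histone genes and *Esco2*, cluster 2 (2802 cells) by *H2afx*, *Aspm* and *Tuba1c*, and cluster 6 (1325 cells) by *Hist1h2bc*, *Lockd* and *Knstrn*. Median UMIs per cell were 1.90, 1.2 and 0.79 times the library median in clusters 4, 2 and 6. Summed levels had medians of 143.7 UMIs per 10000 in cluster 4, 190.7 in cluster 2 and 91.7 in cluster 6. Among the S-phase cluster and these 3, the median CPM was highest in cluster 2 for 48 of the 55 genes, in 24 of them in every library. It was highest in cluster 6 for *Ccnb2*, *Pttg1*, *Cenpa* and *Cdc20*, and in cluster 4 for *Cenpk*, *Aurkb* and *Mad2l1*. Of 80 other mitosis genes, 50 were highest in cluster 2. The share over all genes was not counted, so the peak of the 55 genes is a description only. Cluster 6 over cluster 2 had a median log2 ratio of -1.15 (-1.18 in Smc3 +/- replicate 2), against 0.01 over all 9975 genes compared. It was negative in all 6 libraries for 43 genes, where 12.9% of all genes had this pattern, and positive in all 6 for *Ccnb2* and *Pttg1*, where 12.7% had that pattern.

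*Top2a*, the topoisomerase that untangles sister chromatids, had the lowest ratio of these clusters. It was at 810.0, 1032 and 969.6 CPM in WT and 737, 826 and 925 CPM in Smc3 +/- libraries in cluster 2 and at 139.9, 88.8 and 73.4 CPM in WT and 68.3, 120.4 and 63.8 CPM in Smc3 +/- libraries in cluster 6, a median log2 ratio of -3.33. *Cdk1*, the kinase that drives mitosis, was at 411, 480.4 and 530.3 CPM in WT and 532, 391 and 513 CPM in Smc3 +/- libraries in cluster 2 and 72.2, 53.9 and 48.7 CPM in WT and 63.3, 30.1 and 41.9 CPM in Smc3 +/- libraries in cluster 6 (-3.07). *Spc25* of the Ndc80 complex (-3.04) and *Aurkb*, the kinase of the passenger complex (-2.96), had ratios of a like size. Cyclin B2 went the other way. *Ccnb2* was at 513, 513 and 517 CPM in WT and 624, 344 and 532 CPM in Smc3 +/- libraries in cluster 2 and at 645, 651 and 634 CPM in WT and 869, 557 and 665 CPM in Smc3 +/- libraries in cluster 6, higher in each of the 6 libraries. *Cdc20* differed little, with 567, 604 and 634 CPM in WT and 642, 407 and 667 CPM in Smc3 +/- libraries in cluster 2 and 596, 635 and 614 CPM in WT and 643, 406 and 649 CPM in Smc3 +/- libraries in cluster 6. The histone variant of the centromere, *Cenpa*, was at 541, 514 and 498 CPM in WT and 589, 407 and 493 CPM in Smc3 +/- libraries in cluster 2 and 501, 546 and 515 CPM in WT and 727, 421 and 547 CPM in Smc3 +/- libraries in cluster 6. Securin was higher in cluster 6 in every library, with *Pttg1* at 89.1, 66 and 64.3 CPM in WT and 85.9, 35.1 and 67.1 CPM in Smc3 +/- libraries in cluster 2 and 104, 98.6 and 87 CPM in WT and 182, 90.3 and 97 CPM in Smc3 +/- libraries in cluster 6.

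Cluster 4 differed from cluster 2 by less, with a median log2 ratio of -0.32 (also -0.32 in Smc3 +/- replicate 2) against -0.04 over all 10289 genes. The ratio was below 0 in all 6 libraries for 30 genes (14.1% of all genes) and above 0 in all 6 only for *Cenpk* (11.5% of all genes). *Cenpk* was at 145, 112 and 102 CPM in WT and 135, 140.2 and 118 CPM in Smc3 +/- libraries in cluster 4 and at 87.4, 86.4 and 85.1 CPM in WT and 123, 79.6 and 93.1 CPM in Smc3 +/- libraries in cluster 2. *Cenpf* had the lowest ratio at -1.08, with 208, 234 and 236 CPM in WT and 187, 260.3 and 252 CPM in Smc3 +/- libraries in cluster 4 and 368, 509 and 522 CPM in WT and 403, 466 and 573 CPM in Smc3 +/- libraries in cluster 2. Clusters are groups of cells and not a time course.

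The CB-like and CC-like classes were compared next. Genes of G2 and mitosis outside both lists, such as *Aspm*, *Kpna2* and *Kifc1*, were not left out of the clustering and are among the leading genes of cluster 2, and S-phase cells form a class of their own. A higher level of mitosis genes in the CB-like class was thus partly set by how cells were grouped. The CB-like marker list also holds *H2afx*, a leading gene of cluster 2. CB-like cells were higher than CC-like cells in all 6 libraries for 53 of the 55 genes, where 18.2% of all 10720 compared genes had this pattern, and lower in all 6 for none (14.2% of all genes). The remaining *Anln* and *Espl1* were higher in 5 of 6. The median log2 ratio was 1.17 (a fold of 2.25), against 0.02 over all genes. In single libraries the median was 1.17, 1.22 and 1.02 in WT and 1.18, 1.95 and 1.22 in Smc3 +/-, with Smc3 +/- replicate 2 the highest. Role medians ran from 0.82 for the inner kinetochore to 1.47 for spindle assembly. With a looser cell filter the CC-like class took in a cluster of 3506 cells that had the leading genes of cluster 0 other than haemoglobin, its summed levels were 22.2 to 43.5 UMIs per 10000, and the median log2 ratio was 2.06, with 55 of 55 genes higher in all 6 libraries.

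*Aurka*, the kinase of spindle poles, had the highest ratio of these classes (1.64). It was at 219, 162 and 167 CPM in WT and 253, 137 and 183 CPM in Smc3 +/- libraries in CB-like cells and at 57.3, 45 and 59.3 CPM in WT and 74.8, 23.6 and 56.5 CPM in Smc3 +/- libraries in CC-like cells. *Cdc25b*, the phosphatase that switches on Cdk1 (1.63), was at 156, 168 and 188 CPM in WT and 158, 90.9 and 150.3 CPM in Smc3 +/- libraries against 36.5, 52.4 and 61.3 CPM in WT and 45.1, 4.3 and 41 CPM in Smc3 +/- libraries. The central spindle bundler *Prc1* (1.57) was at 207, 251 and 236 CPM in WT and 250.3, 249.5 and 251 CPM in Smc3 +/- libraries against 46.9, 73.8 and 93.1 CPM in WT and 104, 47.3 and 81.5 CPM in Smc3 +/- libraries. For all 3 genes the libraries of the classes do not overlap. *Pttg1* had the lowest ratio (0.35), with 57.3, 52.9 and 44.4 CPM in WT and 80.7, 25.8 and 49.9 CPM in Smc3 +/- libraries in CC-like cells. *Cks2*, a small partner of Cdk1, had a ratio of 0.57. It was at 705, 861 and 866 CPM in WT and 785, 685 and 926 CPM in Smc3 +/- libraries in CB-like cells and 435, 567 and 594 CPM in WT and 538, 215 and 673 CPM in Smc3 +/- libraries in CC-like cells. *Anln*, which scaffolds the cleavage furrow, was low throughout, at 16.7, 15.9 and 18.7 CPM in WT and 18.6, 37.5 and 17.6 CPM in Smc3 +/- libraries in CB-like cells and 20.8, 5.57 and 9.65 CPM in WT and 14.2, 0 and 8.48 CPM in Smc3 +/- libraries in CC-like cells, with 0 UMIs in the CC-like cells of Smc3 +/- replicate 2 and a median log2 ratio of 0.56. Its WT replicate 1 value was higher in CC-like cells than in CB-like cells.

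**Figure D3:**
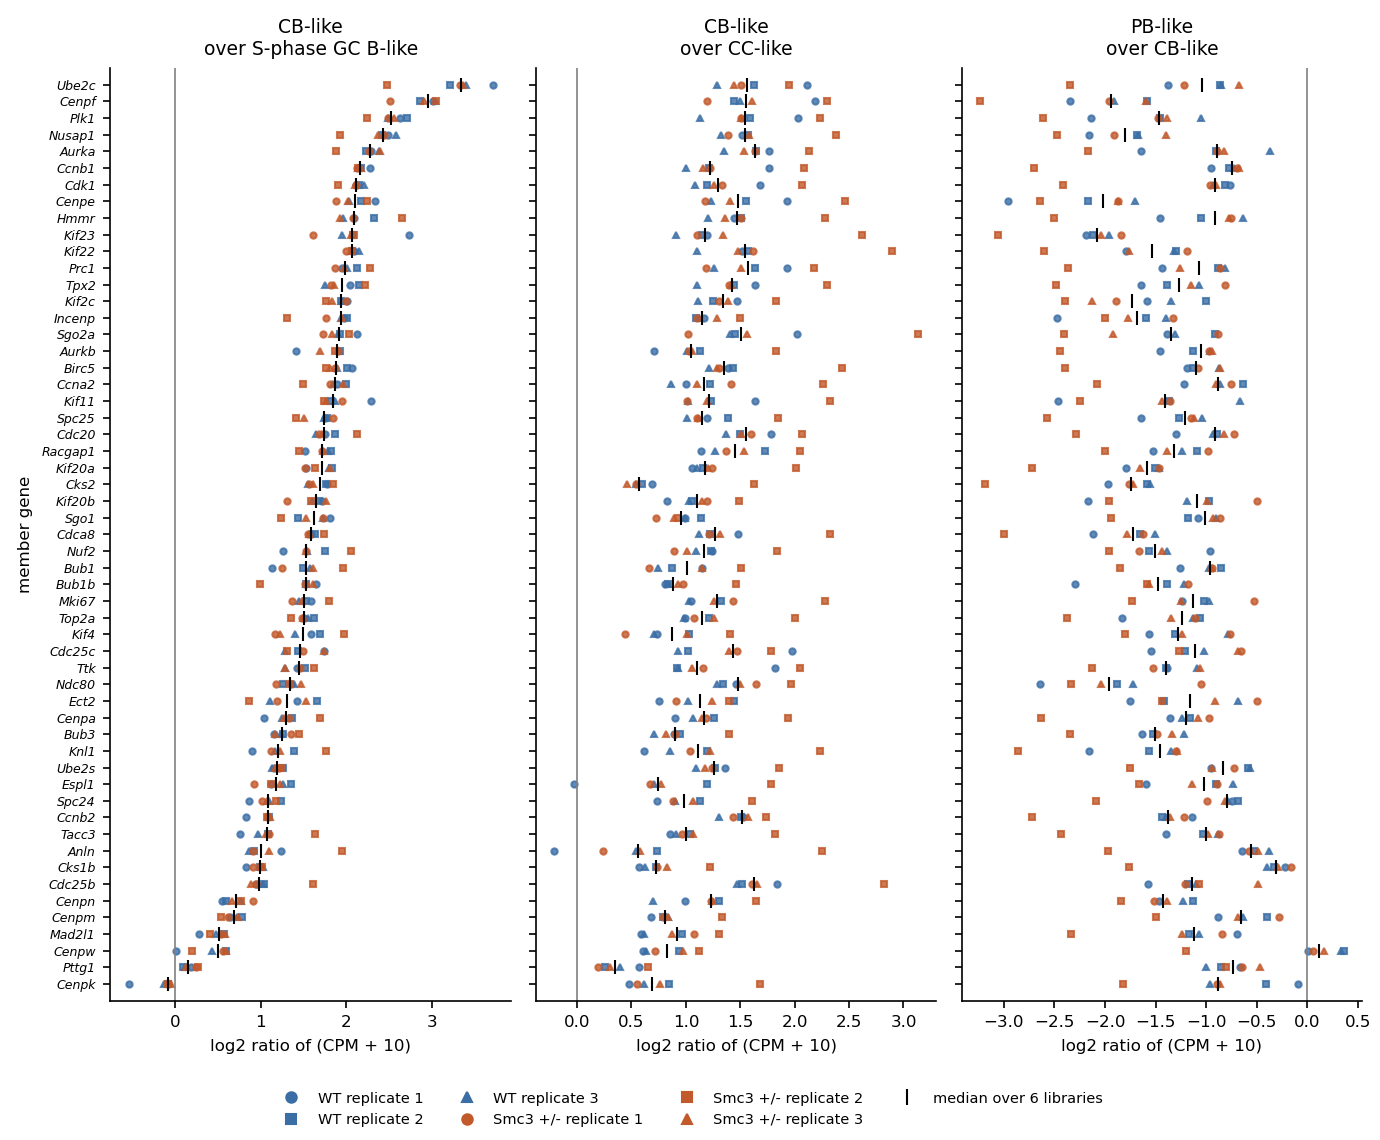
Log2 ratio of CPM + 10 (horizontal axes) for each of the 55 genes (vertical axis, ordered by the left panel) in CB-like over S-phase GC B-like, CB-like over CC-like and PB-like over CB-like cells. Points are libraries (blue WT, orange Smc3 +/-, circles, squares and triangles for replicates 1, 2 and 3) and black bars the medians. Nearly all points lie above 0 in the left and middle panels and below 0 in the right panel, with *Cenpk*, *Pttg1* and *Cenpw* closest to 0 in the left panel.

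The genes *Ccnb2*, *Cdc20* and *Ube2c* have human orthologs in the centrocyte signature that the study took from earlier work, and are given in full. *Ccnb2* was at 477, 435 and 446 CPM in WT and 556, 324 and 455 CPM in Smc3 +/- libraries in CB-like cells and at 159, 147 and 174 CPM in WT and 199, 90.2 and 147 CPM in Smc3 +/- libraries in CC-like cells. *Cdc20* was at 489.6, 495 and 518 CPM in WT and 534, 374 and 535 CPM in Smc3 +/- libraries against 135, 169 and 195 CPM in WT and 169.8, 81.6 and 181 CPM in Smc3 +/- libraries. *Ube2c* was at 655, 706 and 722 CPM in WT and 739, 685 and 752 CPM in Smc3 +/- libraries against 143, 223 and 289.9 CPM in WT and 254, 169.7 and 271 CPM in Smc3 +/- libraries. Each of the 3 genes was 2.86 to 2.96 times higher in CB-like cells by the median fold on the CPM + 10 scale. Their S-phase levels set them apart. *Ccnb2* was higher in S-phase cells than in CC-like cells in every library, at 264, 199 and 205 CPM in WT and 257, 149 and 205 CPM in Smc3 +/- libraries, whereas *Ube2c* was lower there in every library. *Cdc20* at 138, 128 and 158 CPM in WT and 159.6, 78 and 155 CPM in Smc3 +/- libraries in S phase overlapped its CC-like values.

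The genes with the most UMIs in each other role behaved alike between the classes. *Ube2s*, which extends ubiquitin chains, was at 1649, 1299 and 1255 CPM in WT and 1720, 1024 and 1294 CPM in Smc3 +/- libraries in CB-like cells and 638, 532 and 583 CPM in WT and 721, 275 and 565 CPM in Smc3 +/- libraries in CC-like cells. The checkpoint protein gene *Bub3* was at 720.0, 654 and 654 CPM in WT and 895, 486 and 669.8 CPM in Smc3 +/- libraries against 383, 335 and 396 CPM in WT and 476, 178 and 376 CPM in Smc3 +/- libraries, and survivin, *Birc5*, at 740.2, 708 and 658 CPM in WT and 782, 626 and 703 CPM in Smc3 +/- libraries against 276, 255 and 278 CPM in WT and 309.8, 107 and 283 CPM in Smc3 +/- libraries. All 3 were higher in the CB-like cells of each library. *Cenpa* was at 430.2, 423 and 399 CPM in WT and 486, 365 and 399 CPM in Smc3 +/- libraries against 227, 171 and 186 CPM in WT and 209, 88.1 and 175 CPM in Smc3 +/- libraries, and the Ndc80 complex gene *Spc24* at 301, 303 and 303 CPM in WT and 354, 329 and 328 CPM in Smc3 +/- libraries against 177, 133 and 158 CPM in WT and 188, 101 and 152 CPM in Smc3 +/- libraries. *Sgo1*, the shugoshin that guards centromeric cohesin, was at 108, 92 and 90.4 CPM in WT and 108, 62 and 93.9 CPM in Smc3 +/- libraries against 49.5, 36.2 and 40.5 CPM in WT and 61.7, 27.9 and 46.2 CPM in Smc3 +/- libraries. Cohesin at the centromere is what Sgo1 protects until anaphase. *Kif22*, a chromosome arm kinesin, was at 256, 232 and 234 CPM in WT and 301, 176 and 237 CPM in Smc3 +/- libraries against 83.3, 71.5 and 104 CPM in WT and 91.4, 15 and 78.7 CPM in Smc3 +/- libraries, and *Nusap1*, which bundles spindle microtubules, at 616, 519.8 and 489 CPM in WT and 730.5, 411 and 549 CPM in Smc3 +/- libraries against 208, 168 and 189.5 CPM in WT and 273, 70.9 and 177 CPM in Smc3 +/- libraries. *Top2a* was at 700.4, 849.7 and 794 CPM in WT and 614, 717 and 764 CPM in Smc3 +/- libraries against 346, 361 and 397 CPM in WT and 286, 172 and 314 CPM in Smc3 +/- libraries. In these 9 genes no CC-like value reached the CB-like value of the same library.

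Single cells were compared after thinning each to 2000 UMIs. A CB-like cell held UMIs of a median of 19, 20 and 19 of the 55 genes in WT and of 21, 17 and 20 in Smc3 +/-. CC-like cells held 5, 4 and 5 in WT and 6, 2 and 4 in Smc3 +/-, and S-phase GC B-like cells 7, 6 and 6 in WT and 7, 5 and 6 in Smc3 +/-. At least 5 of the genes were seen in 54.3% (95% exact binomial interval 42.9 to 65.4), 47.3% (42.0 to 52.7) and 51.6% (45.6 to 57.6) of WT CC-like cells and in 59.5% (51.3 to 67.3), 27.0% (18.1 to 37.4) and 49.1% (43.5 to 54.7) of Smc3 +/- CC-like cells. The intervals cover counting error only, and the value of Smc3 +/- replicate 2 lies below the intervals of the other 5. Without integration it was not low, at 60.0% (32.3 to 83.7) of 15 cells, against 44.4% to 53.5% in the others. In CB-like cells the share was 95.6% to 98.2%. Cells with at least 15 of the genes made up 63.7% to 78.6% of CB-like cells, 18.1% to 25.4% of CC-like cells in 5 libraries and 5.62% in Smc3 +/- replicate 2. In S-phase cells this share was 2.74% to 10.5%. In each library the share with at least 5 of the genes was higher in S-phase cells (53.4% to 74.6%) than in CC-like cells, and the share with at least 15 was lower. Thinned to 1000 UMIs the shares with at least 5 were 26.3% to 44.4% in S-phase and 15.8% to 45.5% in CC-like cells, higher in CC-like cells in 4 of 6 libraries, so no order of these classes is read from this share. With the looser cell filter, where the CC-like class took in the cluster of 3506 cells, the CC-like shares at 2000 UMIs were 18.7% to 39.0%. PC-like cells had 5 or more genes in 0 of 1169 cells of Smc3 +/- replicate 2 (upper bound 0.315%), and the median UMIs per cell before thinning were 16291 in these and 4400 in the CC-like cells of that library. In the other libraries the share was 1 of 18 cells in WT replicate 2 (5.56%, upper bound 27.3%), 1 of 23 in WT replicate 3 (4.35%, upper bound 21.9%), 1 of 12 in Smc3 +/- replicate 1 (8.33%, upper bound 38.5%) and 0 of 12 and 0 of 16 in WT replicate 1 and Smc3 +/- replicate 3 (upper bounds 26.5% and 20.6%), which are few cells. Immunoglobulin took 66.2% to 69.9% of the UMIs of PC-like cells, and thinning such deep cells leaves few other transcripts, so these shares do not bound the free RNA in CC-like cells.

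**Figure D4:**
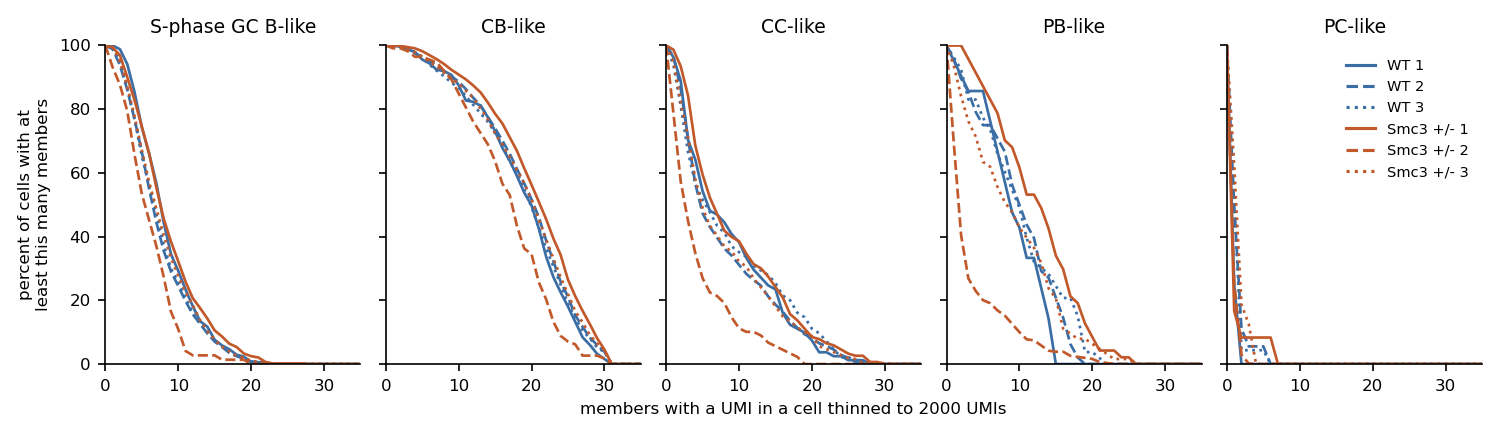
Percent of cells (vertical axis) with UMIs of at least a given number of the 55 genes (horizontal axis) after thinning each cell to 2000 UMIs, in 5 cell classes, 1 line per library (blue WT, orange Smc3 +/-, solid, dashed and dotted for replicates 1, 2 and 3). CB-like lines fall last, CC-like lines fall early with a long tail, and in PB-like cells the line of Smc3 +/- replicate 2 falls far to the left of the others.

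CC-like cells were still well above cluster 0, the haemoglobin gene-led cluster. The median log2 ratio was 2.02 (a fold of 4.07), with 1.44 in Smc3 +/- replicate 2 and 1.86 to 2.16 in the other 5 libraries, and 51 of the 55 genes were higher in CC-like cells in all 6 libraries, where 19.3% of all 9844 genes had this pattern. The largest ratios were those of *Top2a* (3.38) and *Nusap1* (3.21). *Top2a* was at 68.1, 24.4 and 26.4 CPM in WT and 15, 23.5 and 22.2 CPM in Smc3 +/- libraries in cluster 0. *Cdc25b* alone was lower in CC-like cells in all 6 libraries (15% of all genes), with 60.6, 81.3 and 83.8 CPM in WT and 67.1, 35.2 and 74.8 CPM in Smc3 +/- libraries in cluster 0. The CC-like value of Smc3 +/- replicate 2 rested on 2 UMIs of this gene. Securin differed little, with *Pttg1* at 37.9, 49.6 and 52.5 CPM in WT and 56.1, 39.1 and 45.5 CPM in Smc3 +/- libraries in cluster 0 and a median log2 ratio of 0.09.

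Plasmablast-like cells were named in part by S-phase markers, so that they held cell cycle transcripts at all was set by the naming. PB-like cells were lower than CB-like cells in all 6 libraries for 54 of the 55 genes, but 41% of all 10815 genes had this pattern. Immunoglobulin genes took 11.6% to 40.5% of the UMIs of these cells. With immunoglobulin genes left out of the total, 52 of the 55 were lower in all 6, against 31.3% of all genes. The median log2 ratio was -1.16 (-0.99 without immunoglobulin), against -0.22 over all genes. In single libraries it was -1.47, -1.13 and -1.04 in WT and -0.97, -2.34 and -1.14 in Smc3 +/-, lowest in Smc3 +/- replicate 2. The kinesins (-1.54) and the outer kinetochore (-1.50) had the lowest role medians, and the inner kinetochore (-0.88) the highest.

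*Kif23*, a kinesin of the central spindle, was the lowest at -2.08, with 31.6, 45.2 and 52.2 CPM in WT and 53.5, 16.4 and 47.7 CPM in Smc3 +/- libraries in PB-like cells and 179.6, 229 and 233 CPM in WT and 217, 209 and 228 CPM in Smc3 +/- libraries in CB-like cells. *Cenpe*, the kinetochore motor (-2.02), was at 28.1, 71.1 and 95.8 CPM in WT and 65.7, 25.4 and 78.1 CPM in Smc3 +/- libraries against 286, 355 and 335 CPM in WT and 268, 211 and 313 CPM in Smc3 +/- libraries. *Ndc80*, the microtubule-binding subunit of the outer kinetochore (-1.96), was at 7.03, 23.7 and 29.9 CPM in WT and 52, 7.65 and 23.9 CPM in Smc3 +/- libraries against 96.3, 114 and 122 CPM in WT and 118, 79.3 and 129 CPM in Smc3 +/- libraries. None of these 3 reached its CB-like level in a PB-like library. *Cenpw* alone was not lower in PB-like cells, at 169, 199.9 and 178 CPM in WT and 179, 50.5 and 171 CPM in Smc3 +/- libraries (median log2 ratio 0.11, higher in 5 of 6 libraries, and 8.48% of all genes were higher in all 6). It was lower only in Smc3 +/- replicate 2. *Cks1b*, a small partner of cyclin-dependent kinases, had a ratio of -0.31 with 471, 475 and 442 CPM in WT and 564, 161 and 512 CPM in Smc3 +/- libraries against 552, 598 and 585 CPM in WT and 633, 568 and 628 CPM in Smc3 +/- libraries. For *Anln* the ratio was -0.56, with 7.03, 7.9 and 12 CPM in WT and 9.17, 2.09 and 9.76 CPM in Smc3 +/- libraries in PB-like cells.

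Against CC-like cells the PB-like cells differed little, with a median log2 ratio of -0.04 (0.18 without immunoglobulin), against -0.27 over all genes (-0.15 without immunoglobulin). The median was -0.22 in Smc3 +/- replicate 2 and -0.19 to 0.10 in the other libraries. *Birc5*, *Cdc25b* and *Ube2s* were higher in PB-like cells in all 6 libraries (9.16% of all 9518 genes were) and 11 genes were lower in all 6 (37.5% of all genes were). The anaphase genes (0.46) and the cyclins and kinases (0.36) had the highest role medians, and the outer kinetochore (-0.31), the kinesins (-0.31) and the checkpoint (-0.29) the lowest. *Cks2* was lowest with a ratio of -1.24, at 172, 280.0 and 288 CPM in WT and 225, 66.5 and 274 CPM in Smc3 +/- libraries in PB-like cells. *Ube2c* was at 246, 384 and 394 CPM in WT and 312, 127 and 466 CPM in Smc3 +/- libraries in PB-like cells, and *Cdc20* at 193, 262 and 266 CPM in WT and 318, 68.5 and 298 CPM in Smc3 +/- libraries. Without immunoglobulin 15 genes were higher and 4 lower in all 6 libraries, against 14% and 26.8% of all genes. At least 5 of the 55 genes were seen in 85.7%, 75.0% and 77.4% of thinned WT PB-like cells and in 87.2%, 20.1% and 63.5% of the Smc3 +/- ones. PB-like cells numbered 22 to 64 per library and 311 in Smc3 +/- replicate 2. PC-like cells held few UMIs of these genes. Since a plasma lineage cluster was called PB-like or PC-like by its level of S-phase markers, a difference in cycling between the 2 classes was largely set by their naming, and nothing is read from it. PC-like cells numbered 12 to 23 in 5 libraries, below 20 in 4 of them, and 1173 in Smc3 +/- replicate 2. PB-like cells were higher than PC-like cells in all 6 libraries for 54 genes, where 60.4% of all 9135 genes had this pattern, with a median log2 ratio of 2.70 (1.78 in Smc3 +/- replicate 2, 2.51 to 3.06 in the others) against 0.76 over all genes.

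A list of 80 other mitosis genes was compared in the same way between the classes. CB-like over CC-like cells it had a median log2 ratio of 0.66 (0.92 in Smc3 +/- replicate 2), with 63 of 80 higher and 2 lower in all 6 libraries (*Cdc25a* at -0.29 and *Cdc26* at -0.20), and *Cdca3* was highest at 1.67. Of all genes, 18.2% were higher and 14.2% lower in that way. Over S-phase cells the median was 0.69 (0.64 in that library), with 48 higher and 4 lower in all 6 libraries (11.9% and 15.2% of all genes), and *Cdc25a*, the G1/S phosphatase, lowest at -0.87. For PB-like over CB-like cells it was -0.91 (-1.45 in that library), with 67 lower (41% of all genes) and only *Cdc25a* (0.77) higher in all 6 (8.48% of all genes), and *Pimreg* lowest at -1.97. For PB-like over CC-like cells it was -0.22, or -0.06 without immunoglobulin, where the 55 genes were at 0.18.

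The genotype comparison asked whether cells with 1 *Smc3* allele deleted differ in these genes. Counts from 3′ libraries come from the end of a transcript, and the deletion in the mouse model removes an upstream exon. The paper states that RNA-seq of lymphomas with this deletion showed lower *Smc3* expression. Whether 3′ counts of *Smc3* fall with the deletion in GC B-cells was not tested. The values that follow are therefore a description, and no reading of the label is drawn from them. *Smc3* (chr19:53600398-53645833, plus strand, GRCm38) was at 115, 136 and 128 TMM-scaled CPM in all kept cells of WT and at 118, 66.3 and 141 in Smc3 +/- libraries, which overlap. Its log2 fold change of Smc3 +/- over WT was -0.22 (edgeR, unadjusted p = 0.470), and 0.03 without Smc3 +/- replicate 2. In CB-like cells it was at 152, 181 and 160 in WT and 145, 131 and 195 in Smc3 +/-, a log2 fold change of -0.05.

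None of the 55 genes passed an adjusted p of 0.05 in any class by edgeR's quasi-likelihood test with Benjamini-Hochberg adjustment over all genes. Nor did any other gene, so the share called was 0% of 11840 genes in all kept cells, of 9948 in CB-like, 7649 in CC-like, 9214 in S-phase GC B-like and 5698 in PB-like cells. All 55 were tested in each class but the PB-like, where *Anln* and *Espl1* fell under the count filter. In simulated data the test missed most log2 changes of 1 in all kept, CC-like and PB-like cells, so these counts do not show equal levels. At an unadjusted p below 0.05 there were 0 of the 55 genes in CB-like cells and in all kept cells, 2 in CC-like cells (*Top2a* and *Mki67*), 2 in S-phase cells (*Spc25* and *Nusap1*) and 1 in PB-like cells (*Kif2c*), beside 175, 231, 148, 222 and 395 of all genes in all kept, CB-like, CC-like, S-phase and PB-like cells. DESeq2 called 0 of the 55 genes in each class as well, and of all genes 1 in S-phase cells and 1 in PB-like cells. With the replicate number as a block, 1 gene passed in PB-like cells, the interferon-response gene *Ifi27l2a*, and 0 of the 55. At an unadjusted p below 0.05 the edgeR fit with the block had 1 of the 55 genes in CB-like, 4 in CC-like, 4 in S-phase and 1 in PB-like cells. Of all genes it had 320, 205, 335 and 614 in these classes.

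In all kept cells the median log2 fold change of the 55 genes was -0.30, with 54 of 55 negative, against 0.00 over all genes. Without Smc3 +/- replicate 2 it was 0.11, with 45 of 55 positive. CB-like cells made up 3.46% of the kept cells of that library and 28.9% to 34.3% of those of the other 5. A sum over all cells cannot tell fewer cells of a class from less RNA per cell. In CB-like cells the median was 0.02 (0.08 without that library), in S-phase cells 0.07 (0.11), in CC-like cells -0.14 (0.03) and in PB-like cells -0.10 (0.17). The sign of the median in CC-like and PB-like cells thus turned with 1 library, the one with raised immunoglobulin UMIs in both classes. Its share was also raised in CB-like cells (3.21% against 1.59% to 1.76%) and S-phase cells (2.29% against 1.39% to 1.54%), where the sign stayed. Clustered without integration, that library had too few CC-like and S-phase cells to enter the tests. There the CC-like median was 0.03, with 32 of 55 positive. The S-phase median was 0.31, with 51 of 55 positive, against 36 of 55 in the main clustering. Its part in the result beyond these values was not tested.

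**Figure D5:**
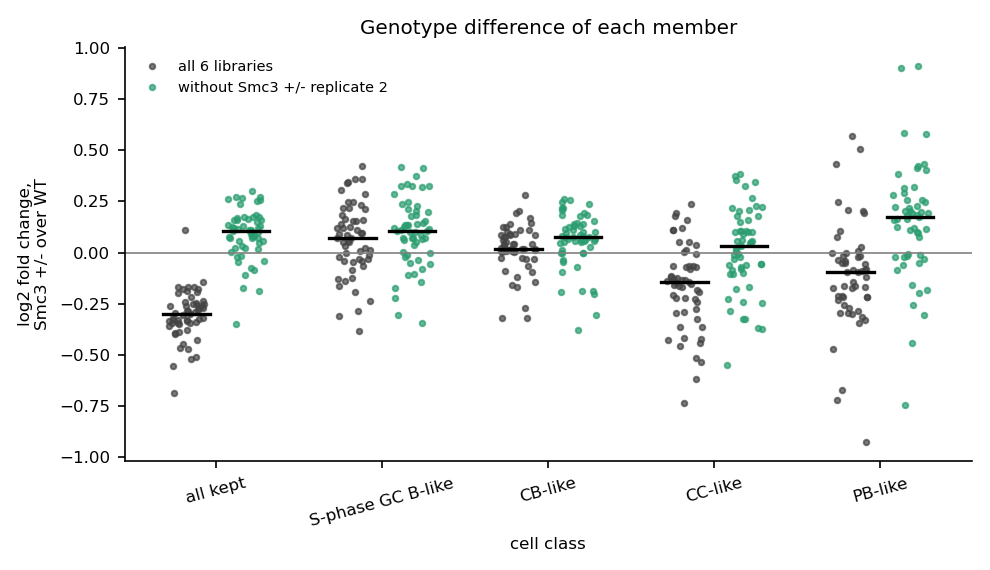
Log2 fold change of Smc3 +/- over WT (vertical axis) of each of the 55 genes in all kept cells and in 4 classes (horizontal axis; 53 genes in PB-like cells), with all 6 libraries (grey) and without Smc3 +/- replicate 2 (green). Points are genes and black bars medians. In all kept cells the median moves from -0.30 to 0.11 when that library is left out, and in CB-like cells it stays near 0 at 0.02 and 0.08.

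Genes whose 3 WT and 3 Smc3 +/- libraries did not overlap were 0 of 55 in all kept cells (8.16% of all genes), 2 in CB-like cells (9.61% of all genes), 3 in CC-like cells (8.68%), 6 in S-phase cells (9.11%) and 1 in PB-like cells (13.4%). In CB-like cells these were *Spc24* and *Cenpk*, both higher in Smc3 +/-, where 4.75% of all genes were higher and 4.86% lower in that way. In all kept cells these shares were 4.05% and 4.1%. In S-phase cells *Spc25*, *Nusap1*, *Cks1b*, *Kif2c*, *Spc24* and *Birc5* were higher in every Smc3 +/- library. That was 10.9% of the 55, against 9.11% of all genes in either direction, 4.21% in that direction and 4.89% in the other. *Knl1*, *Top2a* and *Kif20b* were lower in CC-like cells, where 4.47% of all genes were lower in that way, and *Kif2c* in PB-like cells, where 7.13% were lower and 6.28% higher. Against all genes in either direction, the shares of the 55 were lower in CB-like (3.64%), CC-like (5.45%) and PB-like cells (1.89% of 53). On that basis the S-phase share was near that of all genes (10.9% against 9.11%). In its own direction the CC-like share was above that of all genes (5.45% against 4.47%).

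*Top2a* (chr11:98992943-99024189, minus strand) had the lowest unadjusted p in CC-like cells. It was at 322, 365 and 399 TMM-scaled CPM in WT and at 262, 210 and 315 in Smc3 +/-, a log2 fold change of -0.45 (SE 0.19, 95% interval -0.87 to -0.04, n = 3 and 3, edgeR unadjusted p = 0.0347, adjusted p = 0.9996). Leaving out each library in turn gave -0.61 to -0.33. *Mki67* (chr7:135689784-135716361, minus strand), the gene of the Ki-67 protein that coats mitotic chromosomes, had a log2 fold change of -0.73 in the same cells (SE 0.32, 95% interval -1.44 to -0.03, edgeR unadjusted p = 0.0437). Its values were 158, 201 and 231 in WT and 79.5, 78.7 and 185 in Smc3 +/-, so 2 Smc3 +/- libraries lay below WT and 1 within it. In all kept cells *Mki67* had the lowest unadjusted p of the 55 genes (0.194), at 161, 263 and 261 in WT and 124, 66.5 and 235 in Smc3 +/-. The log2 fold change was -0.69 (SE 0.47) and -0.35 without Smc3 +/- replicate 2. Without Smc3 +/- replicate 3 it was -1.27 in all kept cells and -1.33 in CC-like cells, where leaving out any other library gave -0.85 to -0.51. Its fold changes in CB-like, S-phase and PB-like cells were -0.32, -0.38 and -0.29. With each library left out they ran from -0.54 (without Smc3 +/- replicate 3) to -0.085 (without Smc3 +/- replicate 1) in CB-like cells, from -0.74 to -0.16 without the same libraries in S-phase cells and from -0.49 (without WT replicate 1) to -0.14 (without WT replicate 2) in PB-like cells. Replicate 1 was the lowest WT library for *Mki67* in all kept cells and in each of the 4 classes, and the lowest Smc3 +/- library in CB-like, S-phase and PB-like cells.

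*Spc25* (chr2:69193895-69206194, minus strand) was at 47.5, 40.1 and 41.3 TMM-scaled CPM in S-phase cells of WT and at 55.8, 59.3 and 55.9 in Smc3 +/-. Every Smc3 +/- value lay above every WT value, with a log2 fold change of 0.42 (SE 0.15, 95% interval 0.10 to 0.75, edgeR unadjusted p = 0.0160, adjusted p = 0.99997). Leaving out each library in turn gave 0.38 to 0.46. *Nusap1* in the same cells was at 93.7, 91.1 and 74.8 in WT and 116, 113 and 99.7 in Smc3 +/- (log2 fold change 0.35, unadjusted p = 0.0428 by edgeR). It overlaps *Oip5* on the opposite strand, and the strand setting of the counting was not given in the sources used here. *Kif2c* (chr4:117159639-117182639, minus strand), a kinesin that takes microtubules apart at the centromere, was lower in PB-like cells, at 25.4, 42.2 and 32.7 in WT and 24.7, 13.95 and 17.3 in Smc3 +/-. Its log2 fold change was -0.93 (SE 0.32, 95% interval -1.64 to -0.21, edgeR unadjusted p = 0.0158, adjusted p = 0.686) on 8 to 41 UMIs per library. In S-phase cells *Kif2c* was higher in every Smc3 +/- library. *Cdc25b* (chr2:131186949-131198497, plus strand) had the lowest unadjusted p in CB-like cells, with a log2 fold change of -0.32 (SE 0.18, 95% interval -0.72 to 0.08) and -0.19 without Smc3 +/- replicate 2. It was at 145, 171 and 192 in WT and 147, 101 and 153 in Smc3 +/-, which overlap.

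For the genes with orthologs in the centrocyte signature the log2 fold changes in CC-like cells were -0.08 for *Ccnb2* (SE 0.20), -0.16 for *Cdc20* (SE 0.23) and 0.11 for *Ube2c* (SE 0.24), each smaller than its standard error. The paper's methods label this signature as up in Smc3 +/- centrocytes, from an earlier study. Its results describe the orthologs used for patients as repressed there, so no direction is compared here. Whether the genotype difference itself differed between CC-like and CB-like cells was tested as an interaction with the library as a block. It passed in 1 of 8790 genes (0.0114%), the immunoglobulin constant gene *Ighg3*, and in 0 of the 55. *Cdc25c*, a Cdk1-activating phosphatase, had the lowest unadjusted p of the 55 (0.0446 by edgeR), with a log2 difference of -0.62 (SE 0.30, -0.54 without Smc3 +/- replicate 2) on 1 to 43 UMIs per library in CC-like cells. Of the 80 other mitosis genes, 0 passed in any class or in the interaction by the same test, and at an unadjusted p below 0.05 there were 1 in all kept cells, 0 in CB-like, 3 in CC-like, 0 in S-phase and 3 in PB-like cells.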

How the data were processed

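The members, the gene lists and the tests were chosen with earlier results of these data known. The deposited counts were unnormalized UMI counts per gene and cell barcode, made by the authors from 10x Chromium 3′ libraries with Cell Ranger (matrix header version 3.0.2). The submitters' processing notes name build mm10, R 4.0.2 and Seurat 4.0.0. The strand setting of the counting was not given in the sources used here. Positions were taken from GENCODE M21 (GRCm38) by gene identifier, and 15 of the 55 genes overlap a protein-coding gene on the opposite strand. The study's methods count more wild-type mice than the WT libraries analysed here.

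Barcodes with at least 500 genes and at most 10% mitochondrial UMIs were kept (21568 of 22939), and the highest Scrublet scores (scanpy 1.11.5, 0.8% per 1000 barcodes) were removed as doublets (759, or 3.52%). Cells were clustered in Seurat 5.3.0 under R 4.3.3 by reciprocal PCA (2000 variable genes, 1811 used after leaving out the 55 genes, the other mitosis genes, immunoglobulin and mitochondrial genes and the like, 30 components, 20 neighbours, resolution 0.5). The rule that turns markers into names was written after clusters had been seen: a median log2 fold of at least 0.5 over at least 3 detected markers, and plasma lineage clusters with S-phase markers at 0.5 times the other clusters or more called PB-like.

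UMIs were summed per library and class, and a library entered a genotype test with at least 20 cells of the class. Ratios of classes had no such minimum. Levels are CPM, ratios of classes used a pseudocount of 10 CPM and genes with 30 or more UMIs, and fold changes on that scale understate those of low genes. Genotype was tested with edgeR 4.0.16 (filterByExpr, TMM, quasi-likelihood, no covariate, Benjamini-Hochberg at 0.05), after it was tested on simulated data. The genes given per library were the one with the most UMIs in each role, *Ccnb2*, *Cdc20* and *Ube2c*, the one with the lowest unadjusted p in each test, and the 3 highest and 3 lowest ratios of CB-like over CC-like, CB-like over S-phase and PB-like over CB-like cells. Other genes are named where a short count, a cluster peak or an extreme ratio singled them out after their values were seen.

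Replicate numbers are shared between genotypes. The deviations from the group mean of libraries with the same number correlated at 0.208, 0.119 and 0.141 in CB-like cells, 0.235, 0.128 and 0.145 in S-phase cells and 0.214, 0.155 and 0.167 in PB-like cells, so the numbers were taken to pair libraries there, from the data and not from the labels. In CC-like cells (lowest 0.0468) and all kept cells (lowest -0.159) they were not. The p-values, standard errors and intervals given for single genes within a class are from the fit without this pairing. The alternatives were DESeq2 1.42.0, its size factors, no low-count filter, the replicate block, immunoglobulin genes left out, a looser cell filter (200 genes, 20%), doublets kept, no integration, resolution 1, at least 10 cells, a pseudocount of 1, other thinning depths and each library left out. The looser filter for class ratios and cell shares, and no integration for cell shares, were added after seeing the data.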

Additional observations from a re-analysis of the deposited data

How the results depend on the processing

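None of the 55 genes passed in any class under any alternative run, and the replicate block changed no call of theirs. With the block their median log2 fold changes were -0.53 in all kept, 0.02 in CB-like, -0.20 in CC-like, 0.05 in S-phase and -0.18 in PB-like cells. Counts of all genes past the threshold were 0 for each class, and differed as follows. In CB-like cells 2 passed without integration, and in CC-like cells 3 passed without the low-count filter. In S-phase cells 1 passed by DESeq2, 2 without the filter and 0 to 1 with each library left out (1 without Smc3 +/- replicate 2). In PB-like cells 1 passed by DESeq2, 84 without the filter, 1 with the replicate block and 0 to 1 with each library left out (1 without Smc3 +/- replicate 2). The interaction called 1 gene, 6 without the filter, and 0 to 10 with each library left out (6 without Smc3 +/- replicate 2, 10 without Smc3 +/- replicate 3 and 0 without any of the WT libraries). The median log2 fold change of the 55 genes in S-phase cells was 0.31 without integration, against 0.07. There 1 S-phase cluster of 1033 cells held 248 from WT replicate 1 and 772 from Smc3 +/- replicate 1. In CC-like cells that median was 0.03 without integration, against -0.14.

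The median log2 ratio of CB-like over S-phase cells was 1.59, 1.89 with a pseudocount of 1, 1.25 without integration, 0.83 at resolution 1, 1.44 with doublets kept and 1.72 with the looser filter. That of CB-like over CC-like cells was 2.06 with the looser filter, against 1.17. With each library left out it was 1.58 to 1.59, that of CB-like over CC-like cells 1.15 to 1.23 and that of PB-like over CB-like -1.26 to -1.13. The median percent of cells with at least 5 of the genes moved with depth, from 96.4 to 89.6 (thinned to 1000) and 98.9 (not thinned) in CB-like cells, from 50.3 to 37.7 and 73.0 in CC-like cells (21.8 with the looser filter) and from 66.9 to 34.4 and 92.9 in S-phase cells, where it was 75.4 with doublets kept, so that the order of the CC-like and S-phase medians turned at 1000 UMIs.

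Changes of sign in single genes were all in fold changes that passed no threshold in any fit. *Smc3* in CB-like cells was at 0.016 with doublets kept, 0.015 without integration, 0.056 at resolution 1 and -0.24 to 0.044 with each library left out, and in all kept cells at -0.46 to 0.031. *Ccnb2* in CC-like cells was at 0.017 with the looser filter, 0.065 without integration, 0.00021 at resolution 1 and -0.27 to 0.052 with each library left out. *Cdc20* was at 0.012 with the looser filter, 0.047 without integration and -0.35 to 0.010, and *Ube2c* at -0.067 with doublets kept and -0.11 to 0.39. Median log2 fold changes of the 55 genes with each library left out ran from -0.57 to 0.11 in all kept cells, -0.03 to 0.08 in CB-like, -0.29 to 0.03 in CC-like, 0.02 to 0.11 in S-phase and -0.27 to 0.17 in PB-like cells. The causes were not tested. PB-like cells numbered 22 to 64 in 5 libraries.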
